A study of Bos taurus with 12 samples.

Results

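The genes described here are 8 HOXA and HOXD genes chosen by symbol: HOXA5, HOXA7, HOXA9, HOXA10, HOXA11, HOXD8, HOXD9 and HOXD10. Of these 8 symbols, 4 matched a row of the count table of 13930 gene symbols, namely HOXA5, HOXA9, HOXA10 and HOXD10. The other 4, HOXA7, HOXA11, HOXD8 and HOXD9, were not analysed here. All 4 matched genes passed the filter on low counts, among 10959 genes that did.

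HOX genes encode transcription factors that bind DNA through a homeodomain, and they stand in clusters whose order follows the body axis in which each gene is used. Along the developing female tract HOXA9 marks the future oviduct, HOXA10 the uterus, HOXA11 the lower uterus and cervix, and several of these genes stay active in the adult uterus. HOXA10 is best known there: it is required for implantation in the mouse and is raised by estrogen and progesterone in human endometrium.

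The samples were biopsies of the endometrium of grazing dairy cows (Bos taurus), which the labels class by progesterone on day 4 of the estrous cycle. There were 12 libraries, 3 in each of 4 classes: very low (under 0.25 ng/ml, titled ANE), low (under 1.4, given in mg/dl, titled LPP4), high (above 2.5 ng/ml, titled HPP4) and very high (above 20 ng/ml, titled SO). The labels name no treatment, breed or age, do not spell out the titles, and leave unsaid whether each biopsy of a class is from its own cow. The p-values therefore rest on the spread between samples, which may be partly technical. The question was how HOX expression in this tissue differed with early progesterone.

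Libraries held 3772564 to 8379489 counted reads, and very low replicate 2 had the fewest. Replicates of the high and very high classes ranked genes alike (Spearman correlation 0.957 to 0.976 over genes), those of the low class less so (0.881 to 0.942) and those of the very low class least (0.738 to 0.877). Markers of all the expected tissue compartments were detected, 11 of 12 epithelial and 10 of 10 stromal fibroblast markers among the tested genes. Smooth muscle markers, which belong to the wall under the endometrium and to vessels, differed most between libraries. The mean log2 CPM (reads scaled to library size) of 14 of them was 9.06 to 10.32 in the 6 libraries of the high and very high classes, against 4.76 to 5.86 in the 3 low ones. In the very low class it was 11.41, 4.83 and 6.08 in replicates 1, 2 and 3. Their summed level was 865 to 93400 CPM in the very low, 754 to 2170 in the low, 15700 to 39100 in the high class and, in the very high class, 16000 to 30500 CPM, and no smooth muscle, epithelial or stromal marker was at 0 in any library. Very low replicate 1 also had the lowest epithelial score, 3.47 against 6.05 to 8.21 elsewhere. In bulk tissue, fewer cells of a type and less RNA per cell cannot be told apart.

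None of the 4 genes differed between classes beyond the replicate spread in any of 8 tests. Of the 8, 6 compared a pair of classes, 1 asked whether the 4 class means differed at all (the joint test), and 1 fitted a slope per step in the order of classes. Adjusted p-values (edgeR quasi-likelihood test, Benjamini-Hochberg over all tested genes) ran from 0.216 to 1 over the 24 values of the pairs, from 0.472 to 0.670 in the joint test and from 0.146 to 0.855 for the slope. Over all genes, 1.52% passed for very high against very low, 7.48% for the slope, and 0% for each of the other 5 pairs and the joint test. In those 6 edgeR tests 87 to 2058 genes had an unadjusted p under 0.05, DESeq2 called 0 to 1303 genes and limma-voom 0. At an unadjusted p under 0.05, the 4 genes gave 1 value among the pairs (HOXA5, high against very low, where 18.8% of all genes fell under it) and 1 slope (HOXA5 again, against 27.9% of all genes). DESeq2 and limma-voom also called none of the 4 in any of the 8 tests. A p above the threshold does not show that the classes were alike, and the standard errors of 0.30 to 0.70 log2 units between class means show how wide a difference could go unseen.

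**Figure D1:**
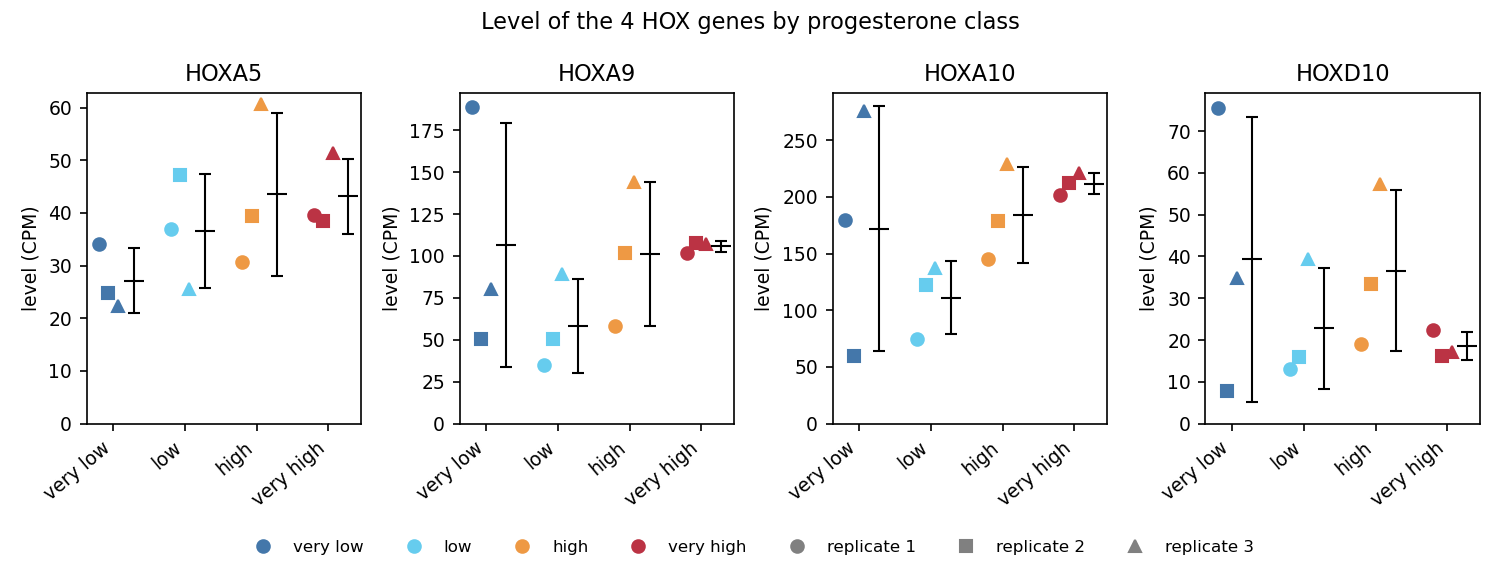
Level of each gene in CPM (linear axis) by progesterone class; symbols are the 3 libraries of a class, and the black dash with bars is the mean ± SD. The libraries lie close together for HOXA9 and HOXA10 in the very high class (102 to 108 and 202 to 221 CPM) and far apart in the very low class (50.3 to 189 and 59.9 to 276 CPM).

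HOXA10, the uterine member of the cluster, was read 232 to 2120 times per library. Its level was 180, 59.9 and 276 CPM in very low replicates 1 to 3, and 74.6, 122 and 137 CPM in the low class. In the high class it was 145, 179 and 229 CPM, and in the very high class 202, 212 and 221 CPM. The very low class thus held both the lowest and the highest library of the 12, whereas the 3 very high libraries lay close together. In order of class means, low was lowest (111 ± 32.6 CPM, SD, n = 3), followed by very low (172 ± 108), high (184 ± 42.6) and very high (212 ± 9.29), and no neighbours in this order differed beyond their spread.

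Every high and every very high library had more HOXA10 than every low library. The very high class stood 1.90-fold above the low class (log2 0.93, SE 0.44, edgeR adjusted p = 0.444), and the high class 1.66-fold above it (log2 0.73, SE 0.44, edgeR adjusted p = 0.595). Such separation was common among all genes: 11.8% lay wholly higher in the very high than in the low class, and 10.3% wholly higher in the high than in the low class. These log2 values were 0.47 (SE 0.64) and 0.24 (SE 0.67) when the smooth muscle score was a covariate. They were 0.33 (SE 1.58) and 0.08 (SE 1.77) when the epithelial score was one too. Smooth muscle scores of the low class lay wholly below those of the high and very high classes, so these fits cannot separate class from score. The low class against the very low gave a log2 difference of -0.63 (SE 0.44, edgeR adjusted p = 0.595), which was -0.11 without very low replicate 3 and -1.02 without very low replicate 2. The slope was 0.15 log2 units per class (SE 0.14, edgeR adjusted p = 0.513), and 0.33 and 0.07 without those libraries.

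HOXA9, the next gene of the cluster in the matched set and an oviduct marker in development that also acts in blood-forming cells, was read 195 to 1069 times. It had 189, 50.3 and 80.3 CPM in very low replicates 1 to 3 and 34.7, 50.3 and 89.2 CPM in the low class. It had 58.0, 102 and 144 CPM in the high class and 102, 108 and 107 CPM in the very high class. The low class was lowest on average (58.0 ± 28.1 CPM, SD, n = 3), and the other 3 class means were nearly equal: 101 ± 42.8 in high, 106 ± 3.49 in very high and 107 ± 72.9 in very low.

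The very high libraries all had more HOXA9 than the low ones, by 1.82-fold (log2 0.86, SE 0.50, edgeR adjusted p = 0.538). High against low overlapped (1.74-fold, log2 0.80, SE 0.50, edgeR adjusted p = 0.607). The first log2 value was 1.31 without low replicate 3, and the second was 1.25 without that library and 0.46 without high replicate 3. The difference of low from very low, -0.88 log2 units (SE 0.50, edgeR adjusted p = 0.520), rested on very low replicate 1, the highest library, and was -0.17 without it. The slope of 0.06 (SE 0.16, edgeR adjusted p = 0.855) was 0.29 without that library. Beside these values stand the smooth muscle scores given above. With that score as a covariate, the differences of very high and of high from low turned to -0.37 and -0.55 (SE 0.41 and 0.43, edgeR adjusted p = 0.617 and 0.487). Class and score cannot be separated in these comparisons either.

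HOXD10, a gene of the second cluster known from hindlimb and motor neuron patterning and as a target of the microRNA miR-10b, was the most variable of the 4. It had 75.5, 7.74 and 34.8 CPM in very low replicates 1 to 3, from 427, 30 and 268 reads. The 30 reads of replicate 2 leave a range of 5.22 to 11.1 CPM (95% exact Poisson interval, counting error only), so the gap to the other 2 replicates is far outside counting error. It had 13, 15.9 and 39.4 CPM in the low class and 19.1, 33.4 and 57.4 CPM in the high class.

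In the very high class HOXD10 was low and even, at 22.5, 16.2 and 17.2 CPM. Class means ran from 18.6 ± 3.42 in very high through 22.8 ± 14.5 in low and 36.6 ± 19.4 in high to 39.4 ± 34.1 CPM in very low (SD, n = 3 each), with neighbours within their spread. Very high against very low gave a log2 difference of -1.08 (SE 0.70, edgeR adjusted p = 0.368), which was -0.23 without very low replicate 1. Very high against high gave -0.97 (SE 0.70, edgeR adjusted p = 1), and -0.49 without high replicate 3. Low against very low gave -0.80 (SE 0.69, edgeR adjusted p = 0.672) and turned to 0.07 without very low replicate 1. The slope was -0.25 log2 units per class (SE 0.22, edgeR adjusted p = 0.494) and 0.0029 without that library.

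HOXA5, known from patterning of the lung and the thoracic skeleton, was the least variable of the 4, with a 2.71-fold range over the 12 libraries against 4.6 for HOXA10, 5.45 for HOXA9 and 9.75 for HOXD10. Over all tested genes, 42.7% had a narrower range than HOXA5 and 80.9% a narrower one than HOXD10. HOXA5 had 34.1, 24.8 and 22.4 CPM in very low replicates 1 to 3, and 36.9, 47.2 and 25.6 CPM in the low class. It had 30.6, 39.4 and 60.7 CPM in the high class and 39.6, 38.5 and 51.3 CPM in the very high class.

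HOXA5 was the single gene of the 4 whose mean was lowest in the very low class, at 27.1 ± 6.21 CPM (SD, n = 3). The low class followed at 36.6 ± 10.8, then very high at 43.1 ± 7.10 and high at 43.6 ± 15.5, and no neighbours differed beyond their spread. All 3 very high libraries exceeded all 3 very low ones, as 13.4% of all genes did. The difference was 1.59-fold (log2 0.67, SE 0.31, edgeR adjusted p = 0.216). High against very low overlapped, at 1.61-fold (log2 0.69, SE 0.31, edgeR adjusted p = 0.264), with a log2 value of 0.37 without high replicate 3. Low against very low gave 0.43 (SE 0.31, edgeR adjusted p = 0.598), and 0.23 without low replicate 2. That difference was 0.68 with the smooth muscle score as covariate and 1.27 with the epithelial score added (edgeR adjusted p = 0.486 and 1). The slope was 0.23 log2 units per class (SE 0.10, unadjusted p = 0.0356 and edgeR adjusted p = 0.146), and 0.18 to 0.28 when single libraries were left out. When both the smooth muscle and the epithelial score were covariates, the differences of very high and of high from very low turned to -0.54 and -0.78 (edgeR adjusted p = 0.710 and 0.743).

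In the 24 comparisons of a gene between 2 classes, 4 had ranges that did not overlap: 2 of HOXA10 and 1 each of HOXA9 and HOXA5, all higher in the class with more progesterone. Of all genes, 13.4% (very high against very low), 11.8% (very high against low) and 10.3% (high against low) lay wholly higher in the pairs concerned. None of the 4 genes was separated in the other 3 pairs. There 7.09% (very high against high), 20.4% (high against very low) and 9.74% (low against very low) of all genes were, in either direction. No share was taken over all 6 pairs together, so the count of 4 in 24 is a description only. The median log2 difference of the 4 genes was 0.55 for very high against low and 0.71 for high against low, where all tested genes had -0.013 and -0.018. It was -0.71 for low against very low (all genes -0.059), and 0.14, 0.02 and 0.01 for very high against very low, very high against high and high against very low. The low class also had the lower smooth muscle scores given above. With that score in the fit, HOXA5, HOXA9, HOXA10 and HOXD10 had -0.20, -0.37, 0.47 and -1.89 for very high against low, and -0.21, -0.55, 0.24 and -1.10 for high against low, so 3 of the 4 lay below 0 in each. The SEs of these values were 0.40 to 0.72, and class and score cannot be separated there. The comparisons against the low class share its 3 libraries.

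**Figure D2:**
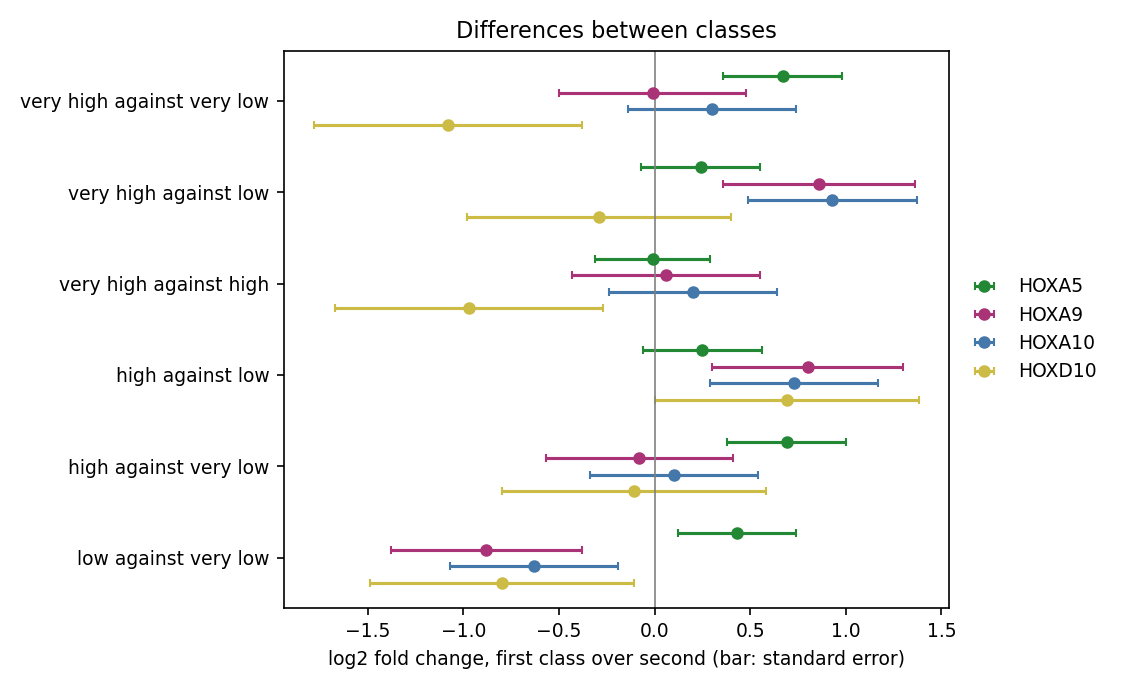
Log2 fold changes of the 4 genes in each pair of classes (first class over the second); bars are 1 standard error of the edgeR fit. HOXA9 and HOXA10 lie above 0 against the low class (0.73 to 0.93). HOXD10 lies below 0 for very high against very low and for very high against high (-1.08 and -0.97). None of these differences passed the threshold on adjusted p.

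Replicate spread itself differed by class. In the very high class the SD of log2 CPM over the 3 libraries was 0.05 for HOXA9 and 0.06 for HOXA10, where the median over all tested genes was 0.24. It was 0.25 for HOXD10 and 0.23 for HOXA5. In the very low class it was 0.96, 1.13 and 1.65 for HOXA9, HOXA10 and HOXD10, where the median gene had 0.58, and 0.31 for HOXA5. In the low and high classes all 4 genes were more variable than the median gene (0.44 to 0.84 against 0.39 and 0.33 to 0.79 against 0.25).

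The balance between the genes was read from counts within a library, which no scaling of libraries can move. For every 100 reads of HOXA10 there were 7.66 to 11.1 reads of HOXD10 in the 3 very high libraries and 12.6 to 41.9 in the other 9, so the groups did not overlap. This ratio was picked after its values were seen and was given no test. Of the 10958 genes set against HOXA10 in this way, HOXD10 included, 2.54% were wholly lower in the very high class. The ratio was highest in very low replicate 1 (41.9), followed by low replicate 3 (28.7) and high replicate 3 (25.0). HOXA9 had 48.5 to 51.1 reads per 100 of HOXA10 in the very high class, 41.2 to 65.0 in the low and 40.1 to 62.6 in the high class. In very low replicates 1 to 3 it had 105, 84.1 and 29.2, so the balance of these adjacent genes varied 3.6-fold within that class alone. HOXA5 had 8.11 to 49.5 reads per 100 of HOXA10 over the 12 libraries.

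HOXD10 had its closest partner in its own cluster. HOXD11, its direct neighbour, had 8.0 to 112 CPM and followed HOXD10 so closely that there were 67.6 to 146 HOXD10 reads per 100 HOXD11 reads, a 2.16-fold range, while HOXD10 itself varied 9.75-fold. Likeness of pattern was measured as the root mean square difference of log2 CPM over the 12 libraries, each gene centred on its mean, against 10241 candidate genes. HOXD11 came first for HOXD10 (0.27 log2 units, where the median candidate had 1.0), followed by the adaptor protein DOK5 (0.32) and the tubulin TUBB6 (0.34). HOXD11 stayed first without very low replicate 1 and when likeness was a Pearson correlation. The gene table used for names has the ends of these 2 loci touching, and the strand setting of the counting is not given in the sources used here, so some reads may be shared between them.

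The other 3 genes had no HOX gene among their 3 closest. For HOXA10 these were C22H3orf18 (0.19), the hedgehog signal transducer SMO (0.20) and NUMBL (0.25), and the first 2 stayed among the 3 closest in both alternatives. For HOXA9 they were MARVELD1 (0.26), RTN2 (0.27) and the sarcoglycan SGCB (0.27), and for HOXA5 GUF1, FAM46B and ZNF383 (0.23 to 0.24). None of these 6 stayed under either alternative. HOXA9 and HOXA10 differed from each other by 0.47, and 327 candidates were closer to HOXA9. HOXA5 stood apart from HOXA9, HOXA10 and HOXD10 (0.68, 0.65 and 0.94), further than its median candidate (0.60). The locus of HOXA5 overlaps those of HOXA6 and HOXA3 in the gene table, so its count is less certain than that of HOXA9 or HOXA10, which overlap no gene there.

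Levels of 3 of the 4 genes followed the smooth muscle score within classes. Each class has 3 pairs of libraries, 12 pairs in all. The library with more smooth muscle signal also had more HOXA9 in 11 of 12 pairs, more HOXA10 in 11 and more HOXD10 in 10, while HOXA5 followed it in 8. The median tested gene followed it in 6 pairs, 2.88% of genes in 11 or more and 8.02% in 10 or more. Among the other tested HOX genes, HOXD4 followed it in 10 pairs, and HOXD11 and HOXC11 in 9 each. HOXA2 and HOXA3 did so in 3 each, HOXC4 in 4 and the HOXB genes in 2 to 4. In the low class HOXD10 had 13, 15.9 and 39.4 CPM beside smooth muscle scores of 4.76, 5.40 and 5.86. In the high class it had 19.1, 33.4 and 57.4 CPM beside 9.07, 9.65 and 10.32. In very high replicates 1 to 3 it had 22.5, 16.2 and 17.2 CPM beside 9.06, 9.26 and 10.09, so in that class it was highest at the lowest score. Very high replicate 1 lay slightly above high replicate 1 at a nearly equal score. Very high replicates 2 and 3 lay below high replicates 2 and 3, whose scores were somewhat higher.

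Of the 32 values for 4 genes and 8 marker lists, the most extreme was that of HOXA10 with T and NK cell markers, which ran in the same order in 1 of 12 pairs (0.547% of genes had 1 or fewer). For stromal fibroblast markers the 4 genes followed the score in 4 to 8 pairs, and for epithelial markers in 3 to 5. These counts are descriptions of the same 12 libraries, and the part of tissue make-up in the class differences was not tested. When the smooth muscle score entered as a covariate, HOXD10 came nearest to a call of any of the 4 genes in any fit: log2 -1.54 for very high against very low (SE 0.54, edgeR adjusted p = 0.0755).

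**Figure D3:**
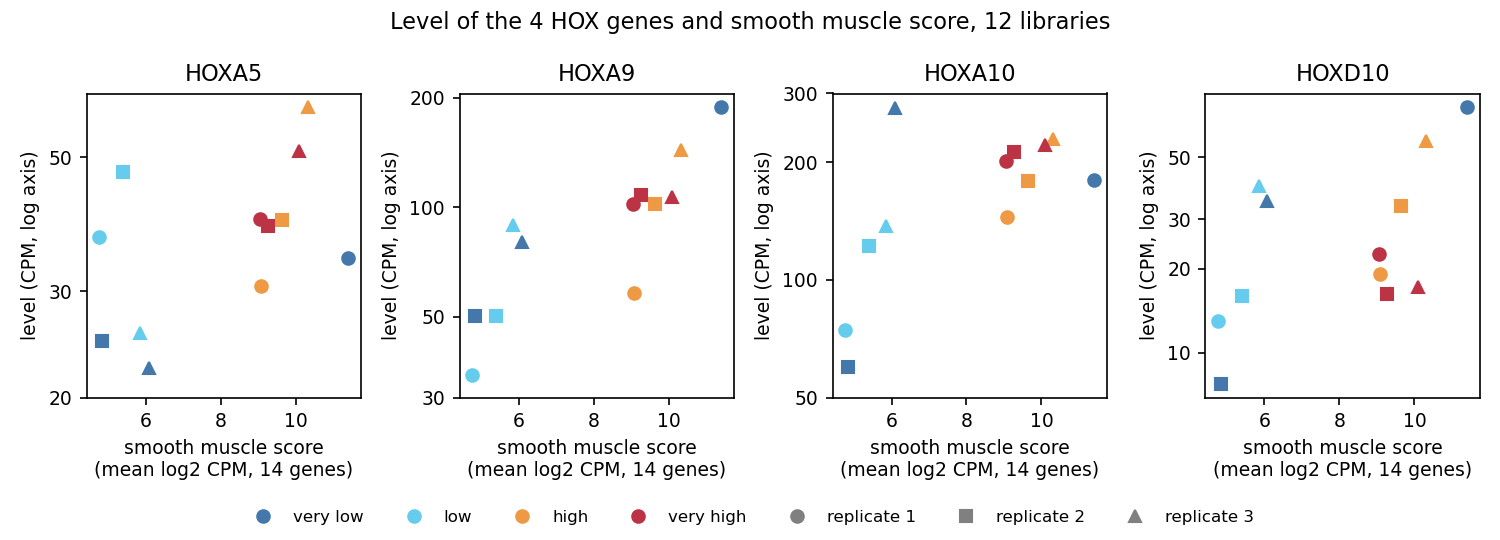
Level of each gene (CPM, log axis) against the mean log2 CPM of 14 smooth muscle markers in the 12 libraries; colour gives the progesterone class and symbol the replicate. HOXA9 is highest in very low replicate 1, the library with the highest score (11.41), and the very high libraries hold 16.2 to 22.5 CPM of HOXD10.

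Among all HOX genes, 22 stood in the table and 15 were tested. The 7 that were not tested had at most 10 reads in any library, and HOXA4 and HOXC12 had none. For HOXC12, 3 reads, an approximate upper 95% Poisson bound for a count of 0, would be 0.343 to 0.774 CPM. The locus of HOXA4 overlaps that of HOXA3 in the gene table, and the counting rule is not known, so its 0 sets no limit. Very low replicate 1 often stood at opposite ends for genes of high and of low number, though HOXB9 was lowest there like the other tested HOXB genes. Its HOXC4 (4.6 CPM against 2.81 to 20.3 elsewhere) and HOXD4 (20.5 CPM against 8.43 to 37.6) lay at neither end. Very low replicate 1 had the highest level of all 12 libraries in 4 of the 6 genes numbered 9 to 11, which lie toward the posterior end. It had the highest level in 0 of the 9 genes numbered 2 to 7. It had the lowest level in 6 of those 9 and in 1 of the 6. Of the 4 highest, HOXC11 rested on 18 reads (3.18 CPM against 0 to 2.87 CPM elsewhere). Of all tested genes, 22.6% were highest and 22.4% lowest in this library, the one with the most smooth muscle and the least epithelial signal.

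Within the HOXA cluster, very low replicate 1 had 1.41 CPM of HOXA2 and 14.5 CPM of HOXA3, below every other library (2.08 to 7.29 and 30.3 to 58.3 CPM). Its 34.1 CPM of HOXA5 and 180 CPM of HOXA10 lay near the median of the others (38.5 and 179 CPM). Its 189 CPM of HOXA9 lay above all of them (34.7 to 144 CPM). The 5 tested HOXB genes, HOXB9 among them, were all lowest there, by 2.09 to 3.29 log2 units below the median of the other libraries. HOXD10 and HOXD11 were 1.99 and 2.65 log2 units above that median.

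**Figure D4:**
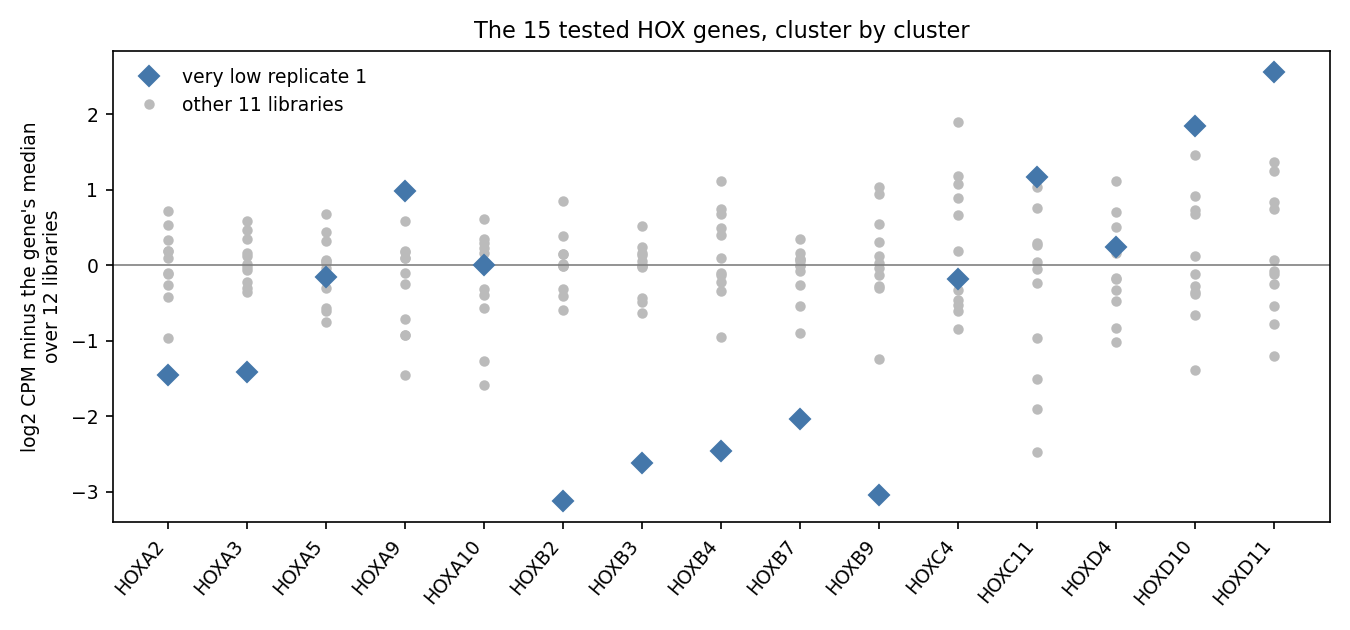
Log2 CPM of the 15 tested HOX genes minus each gene's median over the 12 libraries, ordered by cluster and number; the diamond is very low replicate 1 and grey points are the other 11 libraries. The diamond is the lowest point for all 5 HOXB genes and the highest for HOXA9, HOXC11, HOXD10 and HOXD11.

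None of the 4 other tested HOXA and HOXD genes (HOXA2, HOXA3, HOXD4 and HOXD11) passed in any of the 8 edgeR tests. Nor did any of 7 tested HOXB and HOXC genes. In these 2 sets, 1 of 32 and 2 of 56 values had an unadjusted p under 0.05. Per test, 87 to 3057 of all 10959 genes did. HOXD11 had 54.9 ± 52.5 CPM in the very low and 17.6 ± 1.94 in the very high class (log2 -1.64, SE 0.76, edgeR adjusted p = 0.217). HOXD4, further along the same cluster, averaged 18.2 ± 3.91 and 20.9 ± 6.79 CPM in those classes (log2 difference 0.20, SE 0.42, edgeR adjusted p = 0.803). The smallest joint p of the HOXB and HOXC genes was that of HOXC4, with 8.13 ± 3.39, 12.8 ± 7.14, 5.37 ± 3.98 and 3.81 ± 0.285 CPM from very low to very high (edgeR adjusted p = 0.298). HOXB2, HOXB3 and HOXB7 had 38.8 ± 30.8, 41.8 ± 29.2 and 24.6 ± 13.9 CPM in the very low class and 68.4 ± 10.7, 68.1 ± 4.50 and 38.1 ± 1.13 CPM in the very high class. Calls among these genes appeared once the smooth muscle score was a covariate. For very high against very low HOXD11 then fell (log2 -2.10, SE 0.55, edgeR adjusted p = 0.0319), while HOXA3 (1.12, SE 0.26, edgeR adjusted p = 0.0215), HOXB2, HOXB3, HOXB4 and HOXB7 (1.54 to 2.38) rose, in a fit that called 16.5% of all genes. With the epithelial score added, 0 of these HOX genes and 0 of all genes were called. With the smooth muscle score as the only covariate, HOXA5 had 0.48, HOXA9 -0.43, HOXA10 0.08 and HOXD10 -1.54, none of them called.

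HOX proteins bind DNA together with the TALE homeodomain proteins of the PBX, MEIS and PKNOX families. All 9 listed genes of these families were tested, and 0 passed in any of the 8 edgeR tests. Of their 72 values, 11 had an unadjusted p under 0.05. Per test, 87 to 3057 of all 10959 genes did. DESeq2 called MEIS1 for very high against very low and MEIS3 for the slope. Of all 10959 genes, it called 1510 and 2008 in these tests. MEIS1 had 218 ± 183 CPM in the very low class, of which 429 CPM was in replicate 1, and 70.2 ± 15.3, 98.4 ± 28.3 and 79.1 ± 4.17 CPM in the low, high and very high classes. Very high against very low gave a log2 difference of -1.46 (SE 0.48, edgeR adjusted p = 0.109). MEIS2 (144 ± 215 and 107 ± 45.9 CPM in the very low and very high classes) was also most abundant in very low replicate 1, at 392 CPM. MEIS3 had 40.5 ± 31.0 CPM in the very low class and 99.6 ± 25.1 in the very high class.

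Of 10 genes linked to HOXA10 or HOXA11 in the uterus of mice or women, 8 were tested and 2 passed for the slope, against 7.48% of all genes. The median slope of the 8 was -0.13, with -0.038 over all genes. IGFBP1, an IGF-binding protein that progesterone raises in the ruminant uterus, rose by 1.67 log2 units per class (SE 0.42, edgeR adjusted p = 0.0386). It had 0.177 to 0.650 CPM in the very low, 0.791 to 7.42 in the low, 2.01 to 31.5 in the high class, and very high libraries had 7.85 to 30.1 CPM. Its call held in 10 of 22 alternative fits, all with the same sign, and was lost when any 1 of 8 libraries was left out: very low 2 or 3, low 3, high 1 or 2, or any of the very high class. LIF, a cytokine needed for implantation in the mouse, fell by 1.70 log2 units per class (SE 0.47, edgeR adjusted p = 0.0466), but its level came mainly from very low replicate 2 (39.2 CPM against 0 to 3.84 elsewhere). Without that library the slope was -0.47 and did not pass, and the call held in 5 of 20 alternative fits. EMX2, which HOXA10 represses in human endometrium, had 140 ± 51.7, 85.7 ± 18.4, 109 ± 21.1 and 102 ± 4.6 CPM from very low to very high (slope -0.11, edgeR adjusted p = 0.452). PTGER3, a prostaglandin receptor, had 249 CPM in very low replicate 1, 0 to 1.54 CPM in the other very low and the low libraries, and 7.21 to 39.3 CPM in the remaining 6.

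Polycomb and trithorax proteins keep HOX clusters silent or active. Of 20 such regulators 15 were tested, and 1, EED, passed for very high against very low and for the slope. Of all genes, 1.52% and 7.48% passed in these tests. EED is a core subunit of the Polycomb complex that methylates histone H3. It had 63.1, 48.5 and 69.0 CPM in very low replicates 1 to 3, against 132, 116 and 98.7 CPM in the low class. It had 158, 138 and 88.5 CPM in the high class and 164, 160 and 199 CPM in the very high class. All 3 very low libraries lay below the other 9. The rise was 2.89-fold between the extreme classes (log2 1.53, SE 0.24, edgeR adjusted p = 0.0333) and 0.47 log2 units per class (SE 0.08, edgeR adjusted p = 0.0216). The first call held in 14 of 22 alternative fits and the slope in 19, with the same sign in all. The first was lost without very low replicate 2 or any 1 of the very high libraries (log2 1.44 at the lowest), and the slope without very high replicate 2 or 3. The median of the 15 was 0.06 for very high against very low (all genes -0.119). EZH2, the catalytic partner of EED, had a log2 difference of -0.76 (edgeR adjusted p = 0.358). CBX8, a Polycomb subunit that binds the mark, had 12.1 ± 0.758 CPM in the very low and 20.3 ± 2.15 in the very high class, and PHF1, a cofactor of the methylating complex, 80.6 ± 21.7 and 118 ± 3.74 CPM. BMI1, a subunit of the other Polycomb complex, had 31.6 ± 26.8 and 23.5 ± 6.16 CPM. The slopes of these 3 genes had edgeR adjusted p-values of 0.117, 0.0971 and 0.845.

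All 5 listed steroid receptors were tested, and for the slope over the class order 2 of them passed as falling and 0 as rising. Of all genes, 7.48% passed for the slope, in either direction. Immune markers also differed by class. The score of 6 of 7 macrophage markers was 5.02 to 6.29 in the very low, 4.39 to 6.11 in the low, 3.25 to 3.99 in the high and 2.84 to 3.73 in the very high class. Their summed level was 262 to 614, 163 to 589, 72.3 to 118 and 49.5 to 107 CPM, 5 of the 6 passed for the slope, and of all 7 only AIF1 was at 0 in a library. The 9 T and NK cell markers, none at 0, had scores of 3.79 to 5.12, 3.55 to 4.77, 2.47 to 3.79 and 2.22 to 3.15, and 2 passed. Their part in the receptors' slopes was not tested. PGR, the progesterone receptor, averaged 55.5 ± 19.0 CPM (very low), 32.3 ± 4.36 (low), 32.1 ± 5.53 (high) and 24.2 ± 3.84 CPM (very high; slope -0.37, SE 0.09, edgeR adjusted p = 0.0341). NR3C1, the glucocorticoid receptor, averaged 57.9 ± 17.6, 52.0 ± 10.7, 28 ± 4.31 and 28 ± 2.85 CPM in the same order (slope -0.40, SE 0.09, edgeR adjusted p = 0.0293). These calls held in 12 and 14 of 22 alternative fits, with the same sign in all. That of PGR was lost without very low replicate 3 or any 1 high or very high library, and that of NR3C1 without very low replicate 2, high replicate 1 or any 1 very high library. The estrogen receptors ESR1 (slope -0.45, SE 0.18, edgeR adjusted p = 0.131) and ESR2 (slope 0.94, SE 0.32, edgeR adjusted p = 0.0873) did not pass. The median slope of the 5 was -0.37.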

How the data were processed

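Polyadenylated RNA of 12 endometrial biopsies was sequenced from stranded libraries made in 1 pool, per the labels' protocols. FastQC 0.11.2 and Trimmomatic 0.32, with the builds UMD3.1 and bosTau8, are listed in the submitters' processing notes. For the aligner, counter, strand setting and annotation, nothing is given in the sources used here. The authors deposited raw read counts per gene symbol, 1 column per sample, neither scaled nor pooled.

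Genes were kept by filterByExpr (count minimum 10) and libraries scaled by TMM (factors 0.728 to 1.11). The quasi-likelihood test of edgeR 4.0.16 in R 4.3.3 was fitted to all 12 libraries with 4 class means (8 residual degrees of freedom, common dispersion 0.194). The slope used the order of the classes, since 1 class is labelled in mg/dl. Benjamini-Hochberg adjustment ran over 10959 genes, with a threshold of 0.05. DESeq2 1.42.0 and limma 3.58.1 were alternatives, with other scalings, no filter, thinned libraries, a replicate block, marker scores as covariates and single libraries left out. Marker scores are mean log2 CPM. In a check on simulated data, the test recovered most genes given a large change. It missed most genes whose change was about the size of the largest fold changes printed for the 4 matched genes. A change of that size in these genes could therefore go uncalled.

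The text names all matched members, the 3 genes most like each member (mean log2 CPM of at least 1, no locus numbers), and of each list the 4 with the smallest joint p, or all of 5 or fewer, except 2 genes that are not reported here. Of each gene's 6 pairs, the 3 with the smallest p have their fold change printed. EZH2, HOXA4, HOXC12 and the HOXB genes singled out were chosen after their values were seen. So were very low replicate 1 and the division of the HOX genes by number. Members and lists were chosen with earlier results of these data known. A RefSeq gene table (assembly ARS-UCD2.0, 13492 symbols matched by name, 345 by synonym) served for names and neighbours. Its coordinates are of another build and are not printed. No sequences are shown.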

Additional observations from a re-analysis of the deposited data

How the results depend on the processing

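The count of genes called among HOXA5, HOXA9, HOXA10 and HOXD10 was 0 in all 175 alternative values for the 8 tests, and the smallest adjusted p in any of them was 0.0755. Same-numbered samples had correlations of -0.298 to 0.294 in their deviations over genes, above 0.1 in 3 of 18 pairs. Samples of different number had -0.391 to 0.369, above 0.1 in 15 of 36 pairs. Deviations within a class sum to 0, which constrains these values, so they do not settle whether replicate numbers pair samples. With the replicate block, edgeR again called 0 of the 4 genes in each test, and gave HOXA5 0.66 and HOXD10 -0.90 for very high against very low. Of 352 alternative values of the printed fold changes, 337 kept their direction and 15 reversed. The cause was not tested. When the smooth muscle score was added as covariate, HOXA9 turned to -0.37 (very high against low), -0.55 (high against low) and -0.14 (slope), HOXA10 to a slope of -0.0015, and HOXD10 to 0.35 (low against very low). With smooth muscle and epithelial scores, HOXA5 turned to -0.54 (very high against very low) and -0.78 (high against very low), and HOXA9 to 0.09 (low against very low), -0.77 (very high against low), -1.01 (high against low) and -0.09 (slope). HOXA10 then had a slope of -0.04 and HOXD10 a difference of 0.14 (low against very low). With single libraries left out, HOXD10 ran from -1.45 to 0.07 for low against very low and from -0.37 to 0.0029 for the slope. Over all genes, the 167 calls of very high against very low became 1510 with DESeq2, 1 with limma-voom, 0 with the replicate block, 1808 with the smooth muscle score, 0 with both scores, 0 with only the 6 libraries compared, and 0 to 643 without single libraries. The 820 slope calls became 2008, 360, 180, 1598 and 214 in the first 5 of these, 4 over the low, high and very high classes, and 1 to 1462 without single libraries. Of 264 alternative counts over the gene lists 61 moved by over 1.5 times, and the slope calls of IGFBP1, LIF, PGR and NR3C1 were lost with the replicate block. Of the 4 genes, HOXD10 had the fewest reads in a library (30).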
